A study of Mus musculus with 24 samples.

Results

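The genes described here were 10 genes of the NF-κB pathway, measured in AML-12 cells, an established line of mouse hepatocytes. They were chosen by symbol out of the 55487 genes of the count table, and 21543 of these had at least 1 count. They are the subunit genes *Nfkb1*, *Nfkb2*, *Rela* and *Relb*, the feedback genes *Nfkbia*, *Nfkbiz*, *Tnfaip3* and *Birc3*, and the target genes *Tnfaip2* and *Icam1*. All 10 had counts in every library, from 60 to 3188 per gene and library, and all 10 entered every test. Expression was measured by BRB-seq, a pooled bulk method that reads the 3′ end of mRNA, in 24 libraries that formed 6 groups of 4. The BSA group was given albumin alone. The PAL group was given palmitate at 0.25 mM bound to albumin, a saturated fatty acid that loads hepatocytes with lipid. The remaining groups, CON, BMAL1, CHREBP and BOTH, were also given 0.25 mM palmitate, followed on the next day by an esiRNA, a mixture of short interfering RNAs made by enzymatic digestion, for 24 hours. The esiRNA of the CON group was directed at *Egfp*, a gene absent from mouse cells, and was used at 200 nM. The *Bmal1* esiRNA of the BMAL1 group and the *Chrebp* esiRNA of the CHREBP group were used at 100 nM, and the BOTH group was given the pair at a total of 200 nM. BSA and PAL were not transfected. The palmitate medium lacked dexamethasone and held charcoal-treated serum, and the sources used here do not state the medium of the BSA cells separately. The sources do not say that replicates came from separate cultures, so the p-values measure the spread between these libraries, which may be technical.

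NF-κB is a family of transcription factors that work as dimers. *Rela* and *Relb* encode subunits with a transactivation domain, whereas *Nfkb1* and *Nfkb2* encode precursors that are processed into DNA-binding subunits without one. In resting cells the dimers are held in the cytoplasm by inhibitor proteins such as IκBα, the product of *Nfkbia*. Signals from cytokine and Toll-like receptors activate a kinase complex that marks the inhibitor for degradation, and the released dimers enter the nucleus and bind κB sites. Several genes they switch on feed back on the pathway. *Nfkbia* restores the inhibitor, *Tnfaip3* encodes a ubiquitin-editing enzyme that dampens receptor signalling, *Birc3* encodes a ubiquitin ligase of the receptor complex, and *Nfkbiz* encodes a nuclear IκB protein that selects secondary targets. *Icam1*, an adhesion molecule for leukocytes, and *Tnfaip2*, first described as induced by tumour necrosis factor, are target genes without a feedback role of this kind. In hepatocytes the pathway is known for acute phase and survival responses.

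Promoter stretches are shown for *Nfkbia* and *Tnfaip3*, the feedback genes whose promoters held the κB consensus. Each is the 130 bases just upstream of a transcription start site, 5′ to 3′ on the strand of the gene, from RefSeq on GRCm38.p6, with matches to the 10-base κB consensus on either strand in capitals.
*Nfkbia*, chr12:55492648-55492777, minus strand: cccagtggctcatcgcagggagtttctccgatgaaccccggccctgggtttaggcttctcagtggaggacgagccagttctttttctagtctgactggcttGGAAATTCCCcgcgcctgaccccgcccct
*Tnfaip3*, chr10:19015411-19015540, minus strand: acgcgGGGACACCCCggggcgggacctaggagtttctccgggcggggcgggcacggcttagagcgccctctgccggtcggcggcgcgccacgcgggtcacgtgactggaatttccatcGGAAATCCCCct
The *Nfkbia* stretch held 1 match, 29 bases upstream of the start site. The *Tnfaip3* stretch held 2 matches, at 125 and 12 bases upstream, and also an E-box (CACGTG) at 33 bases upstream. The stretch of a further *Tnfaip3* start site, chr10:19011964-19012093, held no κB match and is not shown. E-boxes are the kind of site to which clock factors bind. RefSeq promoter windows of 300 bases, 250 upstream and 50 downstream of the start, were at hand for 7 of the 10 genes, with 10 windows in all. *Nfkb1*, *Relb* and *Nfkbiz* had no entry. The κB consensus occurred in windows of 3 genes, *Nfkb2*, *Nfkbia* and *Tnfaip3*, against 5.14% of all 27025 genes with a window. In *Nfkb2*, which had several windows, the first held a match GGGAATTCCC at 39 bases upstream, overlapped by a further match 1 base on. The E-box was in the window of 1 gene against 8.09% of all genes. The core of the interferon-stimulated response element, GAAANNGAAA, searched on both strands, was in none of the windows of these genes and in those of 3.99% of all genes. A match of letters is a description and shows neither binding nor its absence.

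The genes are spread over 7 chromosomes of GRCm38, the build of the mm10 alignments. *Nfkb1* is at chr3:135584655-135691547, *Relb* at chr7:19606217-19629438, *Nfkbia* at chr12:55489410-55492647 and *Nfkbiz* at chr16:55811375-55838899, all on the minus strand. *Tnfaip3* at chr10:19000910-19015657 and *Birc3* at chr9:7848699-7873186 are also on the minus strand. *Rela* at chr19:5637483-5648130, *Nfkb2* at chr19:46304320-46312385, *Tnfaip2* at chr12:111442469-111455018 and *Icam1* at chr9:21015985-21028817 are on the plus strand. All are protein-coding. *Nfkb1* overlaps *Gm43430* on its own strand, *Nfkb2* overlaps *Psd* and *AC114539.1* on the other strand, *Tnfaip2* overlaps *Gm40578* and *Icam1* overlaps *Gm47079*. The use of strand in counting is not given in the sources used here, so the counts of these 4 genes carry some uncertainty. The same holds for *Birc3*, which has a close relative in *Birc2*.

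The libraries held 5399700 to 11237474 counts in genes. The 36 replicate pairs within groups gave a chi-square per degree of freedom of 2.69 to 23.1 over genes, so every pair differed by more than counting noise. All 9 hepatocyte markers examined were detected, although *Apoa1* and *Apoa2* reached at most 15 and 9 counts in a library. Of 4 cholangiocyte markers *Krt7*, *Krt19* and *Sox9* were detected in every library, while *Epcam* had a count in 6 libraries and at most 2 counts. Of 7 macrophage markers *Adgre1* and *Clec4f* were at 0 in every library, while 4 exceeded 3 counts in some library, namely *Cd14* with a mean of 86.6 CPM (counts scaled to the library total), *Cd68* with 1.57, *Csf1r* with 0.471 and *Ptprc* with 0.231. Of 6 stellate or fibroblast markers *Lrat* and *Pdgfrb* were at 0, and *Col1a1* (0.667 CPM), *Des* (0.353 CPM) and *Acta2* (0.0857 CPM) exceeded 3 counts in some library. Of 5 endothelial markers 3 were at 0 and 1 exceeded 3 counts, and of 4 lymphocyte markers 3 were at 0 and none exceeded 3 counts. The targeted transcripts were weakly expressed. *Bmal1* (listed as *Arntl*) was 44.7 ± 11.6 normalized counts in CON, 26.0 ± 4.82 in BMAL1 and 22.8 ± 6.64 in BOTH, and *Chrebp* (listed as *Mlxipl*) was 35.6 ± 7.26 in CON, 25.9 ± 4.75 in CHREBP and 17.0 ± 4.91 in BOTH (SD, n = 4). Neither single esiRNA gave a call of its target against CON. For *Mlxipl* in CHREBP the DESeq2 *Padj* was 0.593. For *Arntl* in BMAL1 DESeq2 gave an unadjusted p of 0.00496 but no *Padj*, as its filter on mean count left the gene out. The paper reports silencing of both genes from its transcriptome data and from quantitative PCR. In BOTH both targets were called lower (*Padj* = 0.00994 for *Arntl* and 0.00762 for *Mlxipl* in DESeq2). A score over 40 interferon response genes put CON replicate 1 at 4.71, apart from the other CON libraries at 6.29 to 7.32, and calls against CON that changed without it are given with that change. By library name, the untransfected groups were in column 1, the groups without *Chrebp* esiRNA (CON, BMAL1) in column 2 and those with it (CHREBP, BOTH) in column 3. The effect of *Chrebp* esiRNA, or of transfection in CON against PAL, cannot be told apart from that of the column. PAL, BMAL1 and BOTH were in rows E to H and the groups each is compared with in the same column in rows A to D, so row and treatment cannot be told apart there either.

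**Figure D1:**
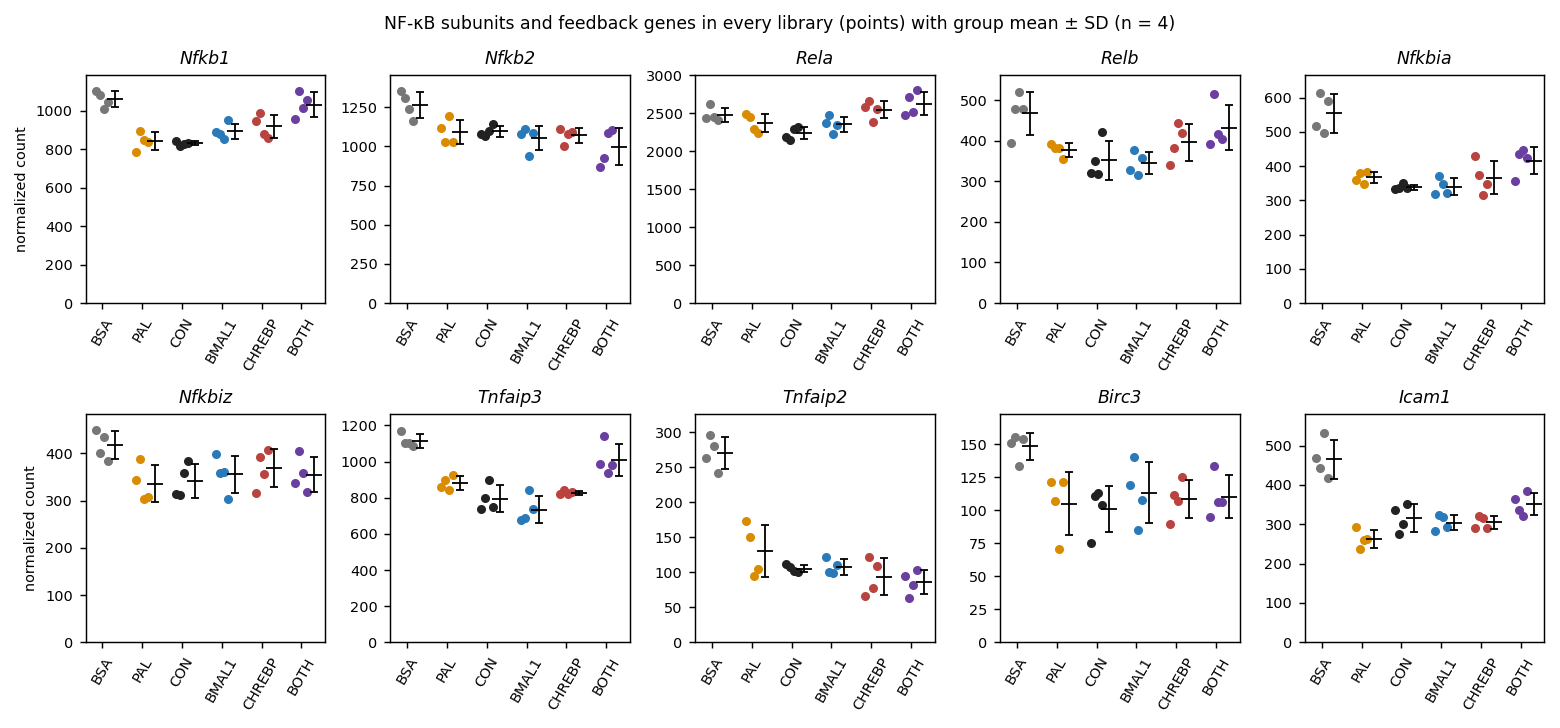
Normalized counts of the 10 genes (vertical axes, starting at 0) in each of the 24 libraries (points, replicates 1 to 4 from left to right), with the group mean and SD beside them (n = 4). For *Nfkbia*, *Tnfaip2* and *Icam1* all 20 palmitate libraries lie below the lowest BSA library, while *Rela* differs little between BSA and PAL.

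The first comparison, PAL against BSA, addressed the effect of palmitate. Of the 12827 genes tested in DESeq2, 7.60% were called lower with palmitate and 6.65% higher (*Padj* under 0.1, adjusted across genes). Palmitate-treated cells had lower levels of 9 of the 10 genes and a higher level of none. The exception was *Rela*. The largest falls were in the target genes *Tnfaip2* and *Icam1*, followed by the inhibitor *Nfkbia*. The median log2 fold change of the 10 genes was -0.33, against 0.0048 over all genes tested. In bulk libraries, fewer cells of a kind and less RNA per cell cannot be told apart. The summed level of the 7 macrophage markers moved with this comparison, from 114 to 124 CPM in BSA to 74.4 to 86.4 in PAL, nearly all of it *Cd14*, a receptor component that hepatocytes can also express. The sum of the 4 cholangiocyte markers ran from 532 to 600 CPM in BSA and from 623 to 721 in PAL. That of the 9 hepatocyte markers ran from 6434 to 6834 in BSA and from 7470 to 8107 in PAL. The hepatocyte sum was mostly the keratin genes *Krt18* and *Krt8*, with means of 4086 and 1687 CPM over all libraries, against 20.8 for *Alb*. The part of these marker sums in the result was not tested.

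Among the subunit genes, *Nfkb1* was the clearest. Its normalized counts were 1105, 1085, 1012 and 1048 in BSA replicates 1 to 4 and 785, 896, 851 and 836 in PAL. All 4 PAL libraries lay below all 4 BSA libraries, and the group means were 1062 ± 41.2 and 842 ± 45.7 (SD, n = 4). The log2 fold change was -0.33 (*Padj* = 8.07e-05 in DESeq2, SE 0.069). *Relb*, which partners the *Nfkb2* product in the non-canonical branch, measured 394, 478, 520.3 and 479.6 in BSA and 393, 382, 381 and 354 in PAL. The groups did not overlap, but BSA replicate 1 came within 1 count of the highest PAL library. Its log2 fold change was -0.30 (*Padj* = 0.0259 in DESeq2, SE 0.10). *Nfkb2* measured 1352, 1309, 1239.8 and 1160.01 in BSA and 1116, 1031, 1193 and 1030.01 in PAL, where PAL replicate 3 was above BSA replicate 4. The difference was small, with a log2 fold change of -0.21 (*Padj* = 0.0380 in DESeq2, SE 0.073). *Rela*, which encodes the main transactivating subunit, averaged 2475 ± 95.5 in BSA and 2369 ± 119.7 in PAL (SD, n = 4), and its groups overlapped. Its log2 fold change of -0.058 (*Padj* = 0.636 in DESeq2, SE 0.058) had a 95% interval of -0.17 to 0.055.

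All 4 feedback genes fell. *Nfkbia* measured 517, 615, 496 and 591 in BSA replicates 1 to 4 and 359, 380.2, 347 and 382 in PAL. The lowest BSA library was above the highest PAL library by more than the whole range within PAL, and the log2 fold change was -0.58 (*Padj* = 5.22e-08 in DESeq2, SE 0.10). *Tnfaip3* measured 1167, 1101, 1101 and 1084 in BSA and 857, 897, 843 and 925 in PAL. Its groups were tight and separate, with a log2 fold change of -0.33 (*Padj* = 3.08e-05 in DESeq2, SE 0.067). *Birc3* measured 151, 156, 133 and 154 in BSA and 121, 107, 70.4 and 121 in PAL. PAL replicate 3 was far below the other PAL libraries, which lay closer to BSA. The log2 fold change was -0.49 (*Padj* = 0.0355 in DESeq2, SE 0.17). *Nfkbiz* measured 449, 401, 435 and 385 in BSA and 345, 387, 304 and 307 in PAL. PAL replicate 2 was above BSA replicate 4, so the groups overlapped, and the log2 fold change was -0.31 (*Padj* = 0.0265 in DESeq2, SE 0.10).

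The target genes fell most. *Tnfaip2* measured 263, 296, 279.5 and 242 in BSA replicates 1 to 4 and 173, 151, 95.04 and 104 in PAL. The groups did not overlap, although PAL replicates 1 and 2 were well above replicates 3 and 4. The log2 fold change of -1.06 (*Padj* = 1.21e-09 in DESeq2, SE 0.16) means that the level fell by 51.9%. *Icam1* measured 468, 442, 533 and 419 in BSA and 292, 237, 259 and 263 in PAL. Every PAL library was far below every BSA library, with a log2 fold change of -0.83 (*Padj* = 7.32e-13 in DESeq2, SE 0.11), so that the level fell by 43.6%.

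In all, 7 of the 10 genes had every PAL library below every BSA library, which held for 8.24% of the 12827 genes tested. The calls of *Nfkb1*, *Nfkbia*, *Tnfaip3*, *Tnfaip2* and *Icam1* were kept in all 13 alternative fits. The other 4 did not keep theirs in all of them. Without BSA replicate 1, *Nfkb2* (-0.18), *Nfkbiz* (-0.28) and *Birc3* (-0.48) were no longer called, and without BSA replicate 2 this held for *Nfkb2* (-0.19) and *Birc3* (-0.47). *Relb* was not called without BSA replicate 3 (-0.24) or PAL replicate 4 (-0.27). *Nfkb2* was not called without PAL replicate 2 or 4 (-0.18 for each), *Nfkbiz* without PAL replicate 3 or 4 (-0.27 for each) and *Birc3* without PAL replicate 3 (-0.34). The *Padj* of these fits ran from 0.109 for *Birc3* without BSA replicate 1 to 0.208 for *Birc3* without PAL replicate 3.

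**Figure D2:**
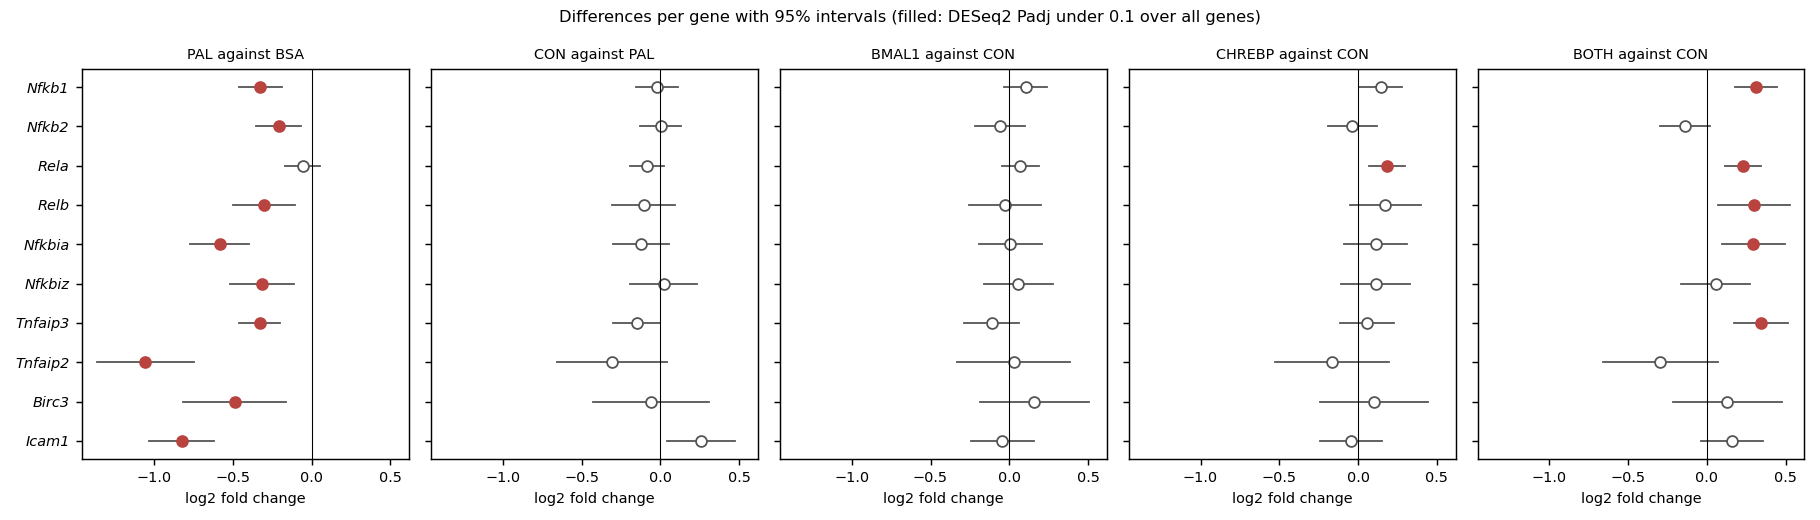
Log2 fold changes (horizontal axes) of the 10 genes in 5 comparisons, with 95% intervals as lines and filled points for *Padj* under 0.1 in DESeq2. In PAL against BSA 9 points are filled and lie left of 0, and in BOTH against CON 5 are filled and lie right of 0.

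The pathway around these genes was examined with 5 lists. They were chosen with earlier results of these data known, so their counts are a description. The list of NF-κB target genes beyond the 10 moved furthest with palmitate. Of its 24 tested genes, 14 fell and 1 rose, with a median log2 fold change of -1.10. Over all genes tested, 7.60% were called lower and 6.65% higher. Within this list the acute phase gene *Saa3* changed by -6.05 (SE 0.084) on the log2 scale, the iron-binding lipocalin gene *Lcn2* changed by -5.17 (SE 0.30), the neutrophil chemokine gene *Cxcl5* by -3.47 (SE 0.064) and the complement gene *C3* by -2.59 (SE 0.054). The gene that rose, named after its value was seen, was the anti-apoptotic *Bcl2l1*, at 0.17 (SE 0.070). Of 6 further subunits and inhibitors, 2 fell, the inhibitor genes *Nfkbie* (-0.81) and *Nfkbib* (-0.29), and none rose. Of 8 tested receptors, 3 fell and none rose. These were *Cd40* (-0.62), the tumour necrosis factor receptor gene *Tnfrsf1a* (-0.17) and, named after its value was seen because of its low counts, *Tlr2* (-1.62). Of 9 tested negative regulators beyond the 10, 1 fell, the RNase gene *Zc3h12a* (-1.33). The 26 tested kinases, adaptors and ubiquitin ligases gave 1 fall, in the kinase gene *Ikbke* (-0.70), and 1 rise, in *Rbck1* (0.20), which encodes a subunit of the linear ubiquitin ligase. Their median was -0.036, close to that of all genes. Of 29 tested interferon response genes, 2 fell and none rose. The counts of the negative regulators, of the kinases, adaptors and ubiquitin ligases and of the interferon response genes were near the shares over all genes.

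**Figure D3:**
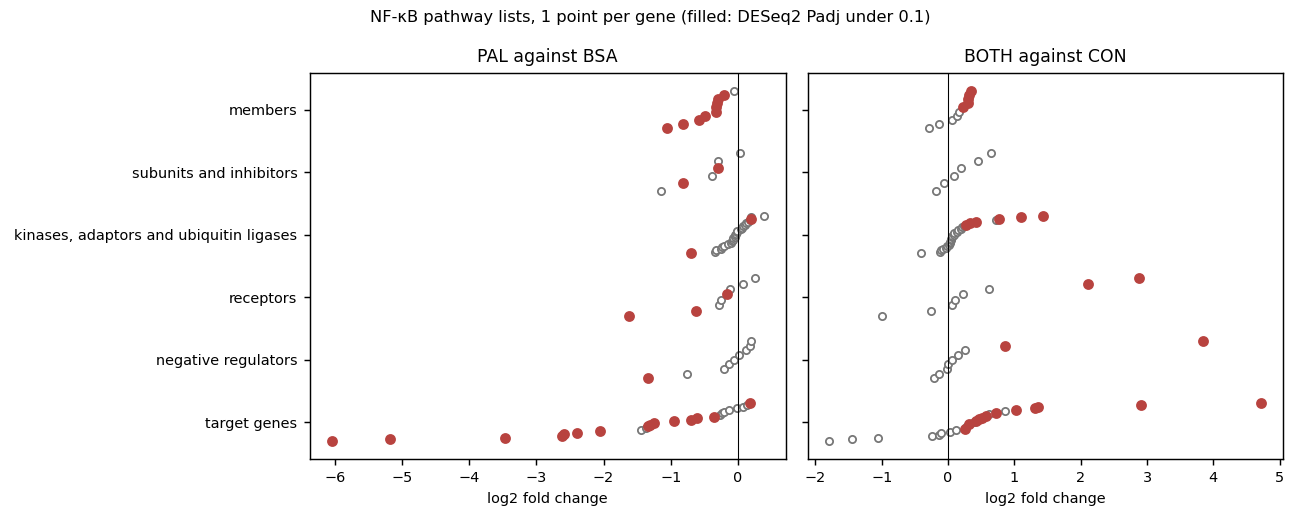
Log2 fold changes (horizontal axes) of the 10 genes and of the 5 lists, with 1 point per gene, filled for *Padj* under 0.1 in DESeq2. With palmitate (left) the target gene *Saa3* reaches -6.05, while most kinases, adaptors and ubiquitin ligases stay near 0, and in BOTH against CON (right) filled points lie right of 0 in 5 of the 6 rows.

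The levels of 3 genes stayed below the carrier range in every palmitate library. For *Nfkbia*, *Tnfaip2* and *Icam1* all 20 libraries of the 5 palmitate groups lay below the lowest BSA library, as was the case for 2.18% of the same 12827 genes. For *Nfkb2* this held in 19 libraries, with PAL replicate 3 the exception, and for *Tnfaip3* in 19, with BOTH replicate 2 the exception. It held in 18 libraries for *Birc3*, 17 for *Nfkb1*, 15 for *Nfkbiz*, 14 for *Relb* and 10 for *Rela*. The 3 exceptions for *Nfkb1* were all BOTH libraries, replicates 2 to 4. BSA had the highest group mean for every gene but *Rela*, which was highest in BOTH at 2626 ± 157 (SD, n = 4). The order of the other groups differed between genes, and in most cases neighbours in the order overlapped. For *Nfkb1* the order was BSA, BOTH, CHREBP, BMAL1, PAL and CON, each overlapping the next. For *Tnfaip3* it was BSA, BOTH, PAL, CHREBP, CON and BMAL1, with BOTH separate from PAL and PAL separate from CHREBP. For *Tnfaip2* it was BSA, PAL, BMAL1, CON, CHREBP and BOTH, from 270.1 ± 23.1 down to 86.1 ± 17.4 (SD, n = 4), with only BSA separate from its neighbour.

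CON against PAL addressed what transfection with a control esiRNA did to palmitate-treated cells. None of the 10 genes was called by DESeq2, where 1.59% of the 12928 genes tested were called higher and 0.920% lower. These 325 calls became 180 without CON replicate 3, 197 without CON replicate 2 and 210 without PAL replicate 4. At an unadjusted p under 0.05 there were 2, *Icam1* with a log2 fold change of 0.26 (*Padj* = 0.309 in DESeq2, SE 0.11) and *Tnfaip3* with -0.15 (*Padj* = 0.472 in DESeq2, SE 0.077), and edgeR also called none. Means of *Icam1* were 263 ± 22.3 in PAL and 316 ± 34.7 in CON (SD, n = 4), and the groups overlapped. In the same comparison 32 of 38 tested interferon response genes rose and none fell, and without CON replicate 1 it was 36 of 37. Of the target list, 4 of 24 genes rose, with *Ccl5* at 4.29, *Cxcl10* at 4.10, *Irf1* at 0.41 and *Ccl2* at 0.32. *Ccl5* had 0 to 6 counts per library in PAL, so its fold is imprecise. Of the receptors *Tlr3* rose (0.90), and of the negative regulators *Usp18* (6.14). Of the 26 kinases, adaptors and ubiquitin ligases none was called, and without CON replicate 1 it was 1, *Rnf31*, higher. *Usp18* and *Cxcl10* also belong to the interferon list.

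Each esiRNA alone was then compared with CON, to ask what *Bmal1* and *Chrebp* each regulate. In BMAL1 against CON no gene of the 10 was called by DESeq2, and none had an unadjusted p under 0.05 or was called by edgeR. Of the 13883 genes tested, 0.166% were called higher and 0.324% lower. These shares were unstable. They amount to 68 calls, against 14 in edgeR, 144 in a fit of the 8 libraries alone, where 48.6% rather than 33.8% of calls were higher, and 107 without CON replicate 1. Without any other 1 of the 8 libraries there were 16 to 32 calls. No gene of the 10 was called in any of these fits. The log2 fold changes ran from -0.11 for *Tnfaip3* to 0.16 for *Birc3*, and the widest 95% intervals were -0.33 to 0.39 for *Tnfaip2* and -0.19 to 0.50 for *Birc3*. For *Nfkb1* the BMAL1 libraries, at 889, 879, 853 and 950.3, all lay above the CON libraries, at 845, 818, 829 and 835, but the log2 fold change of 0.10 (*Padj* = 0.839 in DESeq2, SE 0.069) did not pass. Of the lists, 1 target gene fell, the chemokine gene *Ccl20* (-0.52), and 1 negative regulator, *Usp18* (-2.79), along with 17 of the 40 interferon response genes. Without CON replicate 1, 2 target genes fell, *Ccl20* and *Cxcl10*, and 1 rose, *C3*, and 30 interferon response genes fell. BMAL1 received 100 nM of esiRNA and CON 200 nM, so target and dose cannot be told apart here.

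In CHREBP against CON, 1 of the 10 genes rose, *Rela*, and none fell, where 2.65% of genes were called higher and 0.771% lower. *Rela* measured 2192, 2149.8, 2297 and 2313 in replicates 1 to 4 of CON and 2580.4, 2655, 2383 and 2561 in CHREBP. The groups did not overlap, but the gap between CON replicate 4 and CHREBP replicate 3 was narrow. The log2 fold change was 0.18 (*Padj* = 0.0550 in DESeq2, SE 0.059). The call was lost without CON replicate 1 (0.17, *Padj* = 0.199), without CON replicate 2 (0.17), without CHREBP replicates 1 (0.18), 2 (0.16) or 4 (0.18), and in edgeR (0.18, *Padj* = 0.134). *Nfkb1* was also without overlap, at 948, 986, 881 and 861 in CHREBP, with a log2 fold change of 0.14 (*Padj* = 0.369 in DESeq2, SE 0.069). It was the other gene with an unadjusted p under 0.05. The remaining 8 ran from -0.17 for *Tnfaip2* to 0.17 for *Relb*. Here too the doses differed, at 100 nM and 200 nM. The share of reads not aligned was 25.8% to 26.66% in CHREBP, with no overlap with the 26.73% to 27.5% in CON, and its part in these differences was not tested. At the matched dose of 100 nM, CHREBP against BMAL1 gave no call among the 10 by DESeq2, where 2.90% of genes were called higher and 0.915% lower, none with an unadjusted p under 0.05 and none by edgeR. Over all genes these were 530 calls, and 350 without CHREBP replicate 1. The largest differences were 0.20 (SE 0.12) for *Relb*, with a 95% interval of -0.030 to 0.43, and -0.19 (SE 0.19) for *Tnfaip2*, with an interval of -0.56 to 0.17.

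BOTH against CON, in which the total dose was matched at 200 nM, gave the most calls among the 10 of the comparisons with CON. In BOTH cells 5 genes rose, *Nfkb1*, *Rela*, *Relb*, *Nfkbia* and *Tnfaip3*, and none fell, where 5.99% of genes were called higher and 3.75% lower. The median log2 fold change of the 10 was 0.20, against -0.012 over all genes tested. *Nfkb1* measured 845, 818, 829 and 835 in replicates 1 to 4 of CON and 956, 1106, 1015 and 1055 in BOTH. All BOTH libraries were above all CON libraries, with a log2 fold change of 0.31 (*Padj* = 0.000181 in DESeq2, SE 0.068). *Tnfaip3* measured 735, 797, 898 and 748 in CON and 985, 1141, 935 and 979 in BOTH. CON replicate 3 was the highest of CON and came close to BOTH replicate 3, while BOTH replicate 2 was the highest of all. The log2 fold change was 0.34 (*Padj* = 0.00191 in DESeq2, SE 0.087), or 26.9% higher. *Rela* measured 2472, 2709, 2519 and 2805 in BOTH, again above every CON library, with a log2 fold change of 0.23 (*Padj* = 0.00240 in DESeq2, SE 0.059).

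*Nfkbia* measured 334, 335, 349.6 and 335 in CON and 357, 435, 447 and 425 in BOTH. BOTH replicate 1 was close to CON and the other BOTH libraries were clearly above it, and the log2 fold change was 0.30 (*Padj* = 0.0457 in DESeq2, SE 0.10). *Relb* measured 320.5, 349.99, 318 and 421 in CON and 393, 514, 418 and 404 in BOTH. CON replicate 4 was above all BOTH libraries but replicate 2, so that the groups overlapped and the log2 fold change of 0.30 (*Padj* = 0.0953 in DESeq2, SE 0.12) was near the threshold. The remaining 5 genes were not called. These were *Nfkb2* at -0.14 with a 95% interval of -0.30 to 0.021, *Tnfaip2* at -0.30 with an interval of -0.66 to 0.069, *Nfkbiz* at 0.057, *Birc3* at 0.13 and *Icam1* at 0.16. The share of reads not aligned ran from 24.9% to 26.3% in BOTH and from 26.7% to 27.5% in CON, and the summed cholangiocyte markers from 492 to 596 CPM in BOTH and from 676 to 709 in CON. Their part in these results was not tested.

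The calls of *Nfkb1*, *Rela* and *Tnfaip3* against CON were kept in all 14 alternative fits, including the fit without CON replicate 1. *Nfkbia* was not called without CON replicates 1, 2 or 4 (0.29 for each), or without BOTH replicates 2 (0.27) or 3 (0.26), with *Padj* from 0.104 to 0.149. *Relb* was not called without CON replicates 1 (0.26), 2 (0.30) or 3 (0.25), or without BOTH replicates 2 (0.20) or 3 (0.32), with *Padj* from 0.122 to 0.342. It was also not called by edgeR (0.30, *Padj* = 0.113) or in a fit of the 8 libraries alone (0.30, *Padj* = 0.187). BOTH replicate 2 was the highest BOTH library for *Nfkb1*, *Relb*, *Tnfaip3*, *Nfkbiz* and *Birc3*, and it also had the highest interferon score of all libraries, at 10.4.

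BOTH against BMAL1 called 5 genes higher, *Nfkb1*, *Rela*, *Relb*, *Nfkbia* and *Tnfaip3*, and none lower, where 6.35% of genes were called higher and 4.08% lower. It shares the BOTH libraries with the comparison with CON. *Tnfaip3* measured 675, 685, 842 and 737 in BMAL1, below every BOTH library, with a log2 fold change of 0.46 (*Padj* = 7.71e-06 in DESeq2, SE 0.088). This was the only one of the 5 calls kept in all 14 alternative fits. *Relb*, at 329, 377, 317 and 357 in BMAL1, lay below every BOTH library, with a log2 fold change of 0.32 (*Padj* = 0.0572 in DESeq2, SE 0.12), and *Nfkb1* did as well, with 0.21 (*Padj* = 0.0318 in DESeq2, SE 0.069). *Nfkbia* measured 319, 371, 349 and 322 in BMAL1 and overlapped BOTH through replicate 1 of BOTH, with 0.29 (*Padj* = 0.0528 in DESeq2, SE 0.10). *Rela* measured 2366, 2469, 2230.3 and 2337 in BMAL1, where the highest library was just below the lowest of BOTH, with 0.16 (*Padj* = 0.0724 in DESeq2, SE 0.059). Doses again differed, at 100 nM and 200 nM. The share of reads not aligned was 26.6% to 27.4% in BMAL1 and the summed cholangiocyte markers 651 to 734 CPM, and neither overlapped with BOTH. Their part in these differences was not tested either.

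Those 4 calls were lost in the following fits. Without BOTH replicate 2 none of them was called (*Nfkb1* 0.17, *Rela* 0.14, *Relb* 0.23, *Nfkbia* 0.27). Without BMAL1 replicate 1 *Rela* (0.16), *Relb* (0.30) and *Nfkbia* (0.26) were lost, and without BMAL1 replicate 3 *Nfkb1* (0.19), *Rela* (0.13) and *Relb* (0.29). Without BMAL1 replicate 4 *Rela* (0.16) and *Nfkbia* (0.26) were lost, without BMAL1 replicate 2 *Nfkb1* (0.20), without BOTH replicate 3 *Nfkbia* (0.25) and without BOTH replicate 4 *Rela* (0.13). *Rela* was not called by edgeR (0.16, *Padj* = 0.110), and in a fit of the 8 libraries alone *Nfkb1*, *Rela* and *Nfkbia* were not called.

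Whether *Bmal1* esiRNA acted differently when *Chrebp* was also targeted was asked through BOTH against CHREBP and through the interaction of both esiRNAs. In BOTH against CHREBP 1 of the 10 genes rose, *Tnfaip3*, and none fell, where 0.843% of genes were called higher and 0.151% lower. These are 138 calls, against 53 in edgeR, 80 in the 8 libraries alone and 56 to 222 without 1 library. *Tnfaip3* measured 821, 840.1, 819 and 833 in CHREBP, a narrow range below every BOTH library, with a log2 fold change of 0.29 (*Padj* = 0.0759 in DESeq2, SE 0.087). The call was lost without CHREBP replicates 1 (0.28), 2 (0.29), 3 (0.28) or 4 (0.29), without BOTH replicate 2 (0.22, *Padj* = 0.259), in edgeR (0.29, *Padj* = 0.193) and in the 8 libraries alone (0.28, *Padj* = 0.124). *Nfkb1* at 0.17 (*Padj* = 0.344) in DESeq2 and *Icam1* at 0.20 (*Padj* = 0.551) had an unadjusted p under 0.05 but were not called. Doses were 100 nM and 200 nM.

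In the interaction, *Tnfaip3* was again the 1 gene of the 10 called, higher, where 1.20% of genes were called higher and 0.267% lower. These 204 calls became 122 in edgeR and 104 to 291 without 1 library, with the lowest counts without CON replicate 3 (104) or 2 (112) and the highest without BOTH replicate 4. Its log2 fold change with *Bmal1* esiRNA was -0.11 in BMAL1 against CON and 0.29 in BOTH against CHREBP. The difference between these effects was 0.40 (*Padj* = 0.0691 in DESeq2, SE 0.12), with a 95% interval of 0.16 to 0.64. The total esiRNA dose went from 200 nM to 100 nM in the first of these comparisons and from 100 nM to 200 nM in the other, so the interaction also sets opposite changes of dose against each other, and target and dose cannot be told apart in it. It was called in 9 of 20 alternative fits. It was lost in edgeR (0.40, *Padj* = 0.166) and without CON replicates 2 (0.40) or 3 (0.33), BMAL1 replicates 1 (0.36), 2 (0.37) or 4 (0.40), each CHREBP replicate (0.40, 0.41, 0.40 and 0.40) or BOTH replicate 2 (0.34), with *Padj* between 0.116 and 0.242. The next in size were *Icam1* at 0.25 (*Padj* = 0.647) and *Nfkbia* at 0.18 (*Padj* = 0.818) in DESeq2, which did not pass. The other 7 ran from -0.16 for *Tnfaip2* to 0.15 for *Relb*.

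**Figure D4:**
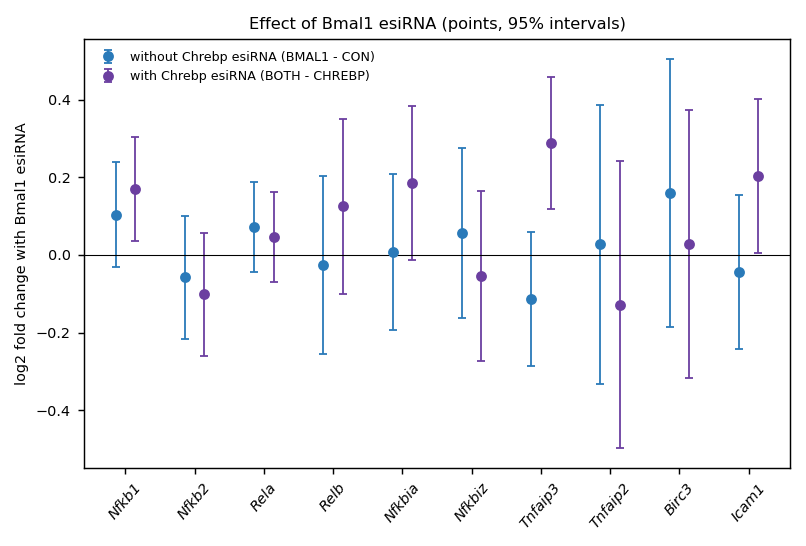
Log2 fold change with *Bmal1* esiRNA (vertical axis) for each gene, without *Chrebp* esiRNA (BMAL1 against CON) and with it (BOTH against CHREBP), with 95% intervals. *Tnfaip3* goes from -0.11 to 0.29, and its intervals do not overlap. Those of the other 9 genes overlap, least for *Icam1*, where they are -0.24 to 0.15 and 0.0062 to 0.40.

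The likelihood ratio test over the 4 esiRNA groups called 3 of the 10 genes, *Tnfaip3* (DESeq2 *Padj* = 3.94e-05), *Nfkb1* (0.00171) and *Rela* (0.00575), against 9.92% of all genes tested. *Nfkbia* (0.103) and *Relb* (0.130) were just short of the threshold. *Nfkb2*, *Nfkbiz*, *Tnfaip2*, *Birc3* and *Icam1* gave *Padj* of 0.490 to 0.971. The 3 calls were kept in every alternative fit, and *Relb*, *Nfkbia* or both were added without CON replicate 4, BMAL1 replicate 2, CHREBP replicates 1 or 3, or BOTH replicates 1 or 4, to a total of up to 5.

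In the lists around the 10 genes those called in BOTH against CON were higher, and they were 0 to 12 genes of a list apart from the interferon response. Of 25 tested target genes 12 rose and none fell in BOTH against CON, where 5.99% of all genes rose, with a median log2 fold change of 0.40. The largest rises were in the chemokine genes *Cxcl10* (4.73) and *Ccl5* (2.91), the transcription factor gene *Irf1* (1.31) and the growth factor gene *Csf1* (1.02). Of 27 kinases, adaptors and ubiquitin ligases 6 rose and none fell, led by the Toll-like receptor adaptor *Myd88* (1.43), *Rnf31* (1.10), *Traf5* (0.77) and *Rbck1* (0.43). *Rnf31* and *Rbck1* encode parts of the linear ubiquitin ligase. Of 8 receptors 2 rose, *Tlr3*, a sensor of double-stranded RNA (2.88), and *Tlr2* (2.10), named after its value was seen. Of 9 negative regulators 2 rose, *Usp18* (3.85) and *N4bp1* (0.85). *Cxcl10* and *Usp18* also belong to the interferon list, so these counts are not separate from it. None of the 6 further subunits and inhibitors was called. All 40 interferon response genes rose. Without CON replicate 1, 12 target genes rose and 1 fell, *Lcn2*, 5 kinases, adaptors and ubiquitin ligases rose, and the counts of the other lists were the same.

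The next counts are out of 25 target genes, 27 kinases, adaptors and ubiquitin ligases, 8 receptors, 9 negative regulators, 6 further subunits and inhibitors and 40 interferon response genes tested. As above, *Cxcl10* and *Usp18* count in the interferon list as well. In CHREBP against CON, with 2.65% of all genes higher, 7 target genes, 3 kinases, adaptors and ubiquitin ligases, 1 receptor, 2 negative regulators and 39 of the 40 interferon response genes rose, and none fell. Without CON replicate 1 the counts were 6 target genes and 40 interferon response genes, and those of the other lists did not move. *Cxcl10* (3.55), *Tlr3* (2.08) and *Usp18* (2.87) were among them. CHREBP against BMAL1, with 2.90% of all genes higher, gave 8 target genes, 3 kinases, adaptors and ubiquitin ligases, 2 receptors, 2 negative regulators and all 40 interferon response genes, all higher. In BOTH against BMAL1, with 6.35% of all genes higher and 4.08% lower, 12 target genes, 6 kinases, adaptors and ubiquitin ligases, 4 receptors, 2 negative regulators, 1 further subunit and 40 interferon response genes rose, and 1 target gene fell. In BOTH against CHREBP, with 0.843% of all genes higher, 5 target genes, 3 kinases, adaptors and ubiquitin ligases and 2 interferon response genes rose. *Myd88* (0.65), *Traf5* (0.47) and *Rbck1* (0.22) were the 3. The interaction was called, always higher, with 1.20% of all genes so called, in 6 target genes, 2 kinases, adaptors and ubiquitin ligases, 1 negative regulator and 27 interferon response genes, and without CON replicate 1 in 7, 1, 1 and 36. In the likelihood ratio test, with 9.92% of all genes called, 14 target genes, 6 kinases, adaptors and ubiquitin ligases, 3 receptors, 2 negative regulators, 1 further subunit and 40 interferon response genes were called. Without CON replicate 1 the kinases, adaptors and ubiquitin ligases were 5 and the receptors 2, and among the target genes *Lcn2* was gained and *Bcl2l1* lost.

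In BOTH against CON the median log2 fold change was 3.40 over the interferon list and 0.20 over the 10 genes. The score of the list is the mean over its genes of log2(normalized count + 1). In untransfected cells it was 3.97 ± 0.17 with BSA and 3.60 ± 0.12 with PAL. Among the esiRNA groups it was 5.11 ± 0.27 in BMAL1, 6.40 ± 1.22 in CON, 9.16 ± 0.48 in CHREBP and 9.95 ± 0.38 in BOTH (SD, n = 4). *Nfkb1*, *Rela*, *Relb*, *Nfkbia*, *Tnfaip3* and *Icam1* were highest among the esiRNA groups in BOTH, where the score was also highest, and *Nfkb2* and *Tnfaip2* were lowest there. The part of the interferon response in these differences was not tested. Over the 24 libraries, which share treatments, Pearson's r with the score ran from -0.66 for *Tnfaip2* to 0.48 for *Rela*. After group means were removed it ran from -0.48 for *Icam1* to 0.45 for *Tnfaip3*.

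**Figure D5:**
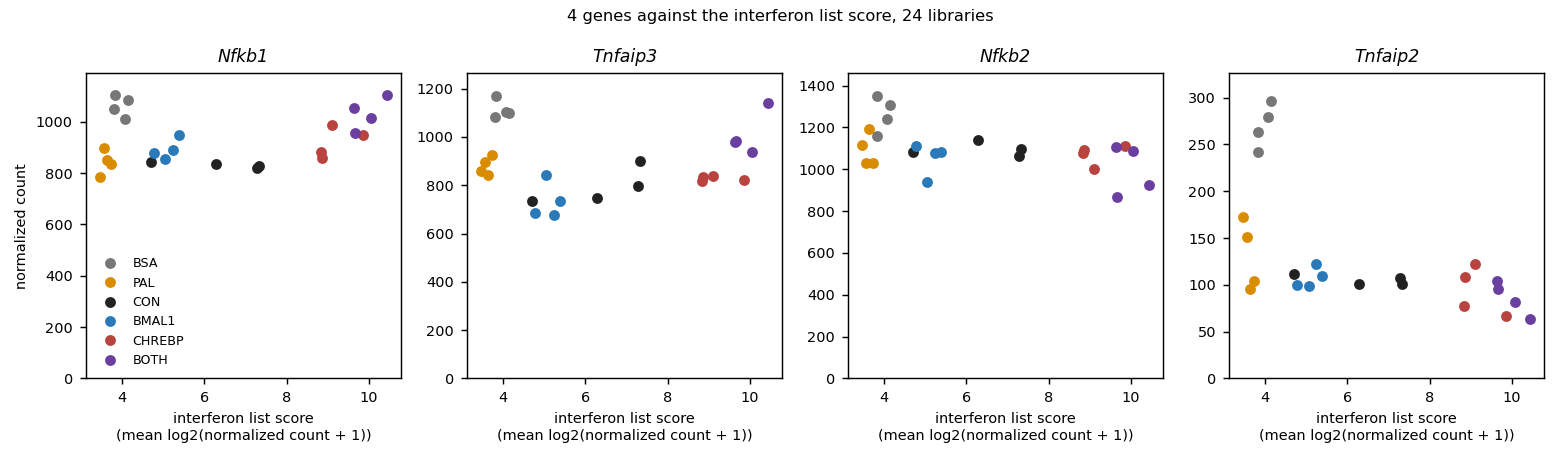
Normalized counts of *Nfkb1*, *Tnfaip3*, *Nfkb2* and *Tnfaip2* (vertical axes, starting at 0) against the interferon list score (horizontal axes, mean log2(normalized count + 1)), with 1 point per library, coloured by group. BSA points lie around a mean score of 3.97 with high counts of all 4 genes, and the BOTH points, around 9.95, are high for *Nfkb1* and *Tnfaip3* and low for *Tnfaip2*.

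Levels of the 10 genes were also compared with each other across libraries, as a description. Over the 24 libraries, which share treatments, Pearson's r of log2(normalized count + 1) was above 0 in all 45 pairs, from 0.015 to 0.80 with a median of 0.50. Within groups it ran from -0.46, for *Nfkb2* with *Tnfaip3*, to 0.44, with a median of 0.11, and it was above 0 in 28 of the 45 pairs.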

How the data were processed

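RNA of 24 AML-12 libraries was profiled by BRB-seq. Per the labels and the study's methods, the authors used STAR with the mm10 genome for alignment, and HTSeq and featureCounts are named for counting. The deposited table held raw counts, whole numbers for each Ensembl gene in each library, neither normalized nor pooled. Tool versions, annotation release, use of strand and handling of unique molecular identifiers are not given in the sources used here. Reads outside genes made up 5.11% to 6.47% and unaligned reads 24.9% to 28.0% of a library, and the 5 summary lines were left out.

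Groups came from the sample titles. Tests were made with DESeq2 1.42.0 (R 4.3.3), which the study also names, after genes whose counts summed to under 25 in a fit were left out, on the 8 libraries of PAL against BSA and of CON against PAL, and on all 16 esiRNA libraries together for the rest, with Wald tests and 1 likelihood ratio test. P-values were adjusted by Benjamini-Hochberg across genes, and *Padj* under 0.1 was a call. DESeq2 adjusted only over genes that passed its further filter on mean count. Genes below that filter had no *Padj* and could not be called. They stay in the printed shares of genes tested, which lowers those shares. Printed levels are counts divided by size factors over all 24 libraries. Alternatives were edgeR 4.0.16 (quasi-likelihood), TMM size factors, no count filter, a replicate block, other sets of libraries in the fit, and each library left out. Scripts were tested on simulated data. Total counts of 5399700 to 11237474 put 3 counts at 0.267 to 0.556 CPM.

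The 10 genes and all lists were chosen with earlier results of these data known. Named were these 10 genes, the targeted genes, for each list up to 4 called genes with the largest changes and a mean of 50 or more normalized counts, and for each of the 10 the 2 genes with the highest correlation to it. Gene positions came from GENCODE M21 on GRCm38, which held 55141 of the 55487 identifiers, and promoters from RefSeq on GRCm38.p6.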

Additional observations from a re-analysis of the deposited data

Results flagged for a closer look

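*Nfkbia* in CON had 1 library apart from the others. Its normalized counts in replicates 1 to 4 were 334, 335, 349.6 and 335, and the gap of replicate 3 to its nearest neighbour was 0.923 of the whole range, above the 95% critical value of Dixon's test for 4 values. The exact value of the high library was 349.578, which is a small distance in absolute terms, because the other 3 libraries were nearly equal. This was the only such case among 60 gene and group combinations, where chance gives about 1 in 20, or 3.

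The effect of *Bmal1* esiRNA on *Tnfaip3* differed between cells without and with *Chrebp* esiRNA by 0.40 on the log2 scale, by the interaction term of the DESeq2 fit of 16 libraries (*Padj* = 0.0691). The effect was -0.11 in BMAL1 against CON and 0.29 in BOTH against CHREBP. The edgeR fit and 10 of the 16 fits without 1 library did not call it. The total esiRNA dose changed in opposite directions in these comparisons, from 200 nM to 100 nM and from 100 nM to 200 nM, and cannot be told apart from the target.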

How the results depend on the processing

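No log2 fold change of a called gene changed sign in any alternative. Of 500 log2 fold changes in fits with another tool, scaling, filter, block or set of libraries, 13 lost a call, out of 121 that belonged to called genes and could lose one. Of 800 in fits without 1 library, 57 lost a call, out of 184 of called genes, or 31.0%. None gained a call. With edgeR no gene of the 10 was called in CHREBP against CON, BOTH against CHREBP or the interaction (0 in each, against 1), where 2, 3 and 1 had an unadjusted p under 0.05. In fits of only the 2 groups compared, 0 genes were called in BOTH against CHREBP and 2 in BOTH against BMAL1. Leaving out each library in turn gave 6 to 9 calls among the 10 in PAL against BSA, 0 to 1 in CHREBP against CON, 3 to 5 in BOTH against CON, 0 to 1 in BOTH against CHREBP, 1 to 5 in BOTH against BMAL1, 0 to 1 in the interaction and 3 to 5 in the likelihood ratio test, and 0 in the other comparisons. The causes were not tested.

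Over all genes, calls in BMAL1 against CON went from 68 to 14 with edgeR and 144 with only the 2 groups, and the higher calls from 33.8% of them to 48.6% with only the 2 groups. Calls in BOTH against CHREBP went from 138 to 53 with edgeR and 80 with only the 2 groups, and in the interaction from 204 to 122 with edgeR, where the higher calls went from 81.9% to 92.6%. Without 1 library the ranges were 1355 to 1602 in PAL against BSA (1828 with all), 180 to 343 in CON against PAL (325), 16 to 107 in BMAL1 against CON, 350 to 513 in CHREBP against BMAL1 (530), 56 to 222 in BOTH against CHREBP and 104 to 291 in the interaction.

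With the replicate number as a block, 6 of the 10 genes were called in PAL against BSA, *Nfkb2*, *Relb* and *Nfkbiz* being lost (*Padj* = 0.107, 0.109 and 0.106 in DESeq2), and 4 in the likelihood ratio test, with *Relb* added. All other counts among the 10 were the same under the block. Over all genes the block gave 1188 calls in PAL against BSA, 186 in CON against PAL, 22 in BMAL1 against CON, 100 in BOTH against CHREBP and 147 in the interaction. The numbers did not pair the samples. Deviations of same-numbered libraries from their group means correlated with a mean r of 0.033 for BSA and PAL, 0.086 for PAL and CON and 0.018 among the esiRNA groups, and exceeded 0.1 in 0 of 4, 2 of 4 and 4 of 24 pairs.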

Other observations

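The genes most like each of the 10 over the 24 libraries were found among 9379 genes whose mean normalized count was 50 or more, by Pearson's r of log2(normalized count + 1). They are a description, since the libraries share treatments. *Icam1* was closest to *Ctsz* (r = 0.90) and *Abcc3* (0.87), and *Tnfaip2* to *Macrod1* (0.90) and *Mettl26* (0.90). *Nfkbia* was closest to the monocyte chemokine gene *Ccl7* (0.89) and to *Cst3* (0.86). *Tnfaip3* was closest to *Gng12* (0.84) and *Ccl7* (0.84), and *Nfkb1* to *Gng12* (0.88) and *Cybb* (0.87). *Relb* was closest to *Rhbdf2* (0.79) and *Gng12* (0.75), so that *Gng12*, a G protein subunit gene, was among the 2 closest for 3 of the 10 genes. *Nfkb2* was closest to the interferon gamma receptor gene *Ifngr2* (0.82) and to *Gstm5* (0.79), and *Rela* to the immediate early gene *Egr1* (0.78) and to *Fbxo42* (0.78). The likeness was lowest for *Birc3*, with *Fermt2* and *Parp8* (0.74 for each), and *Nfkbiz*, with *Slc39a10* (0.73) and *Pyroxd2* (0.72).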
